A study of Homo sapiens with 3 samples.

Results

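Translation factors are the proteins that bring messenger RNA, initiator tRNA and ribosomal subunits together, move the ribosome along the message and release the finished chain. The set described here holds 58 genes out of 35880 symbols in the deposited table. They were chosen by symbol and not by measured value, though earlier results of these data were known. The genes are eukaryotic initiation factors (EIF genes), elongation factors (EEF genes, with EIF5A) and release factors (ETF1, GSPT1 and GSPT2). The 4E-binding proteins and the eIF2 kinases are also in the set. All 58 symbols were in the table and all were above 0 in every library. The measurements came from untreated HEK293T cells, a human embryonic kidney line that carries SV40 large T antigen, grown in high-glucose medium with 10% serum and harvested at 70% confluence. The 3 libraries, made from oligo-dT selected RNA and labelled as biological replicates, form 1 group, so the design allows levels, ratios between genes and the spread between libraries, and no contrast of conditions. Nothing in the labels tells whether they came from separate cultures, so the spread between them may be technical. Each p-value sets the distance of a mean from a fixed level, or of a pair difference from 0, against that spread only. In bulk RNA, fewer cells with a message and less of it per cell cannot be told apart.

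Initiation begins when eIF2 carries initiator tRNA to the small ribosomal subunit with eIF1, eIF1A, eIF3 and eIF5, while eIF4E, eIF4G and eIF4A bind the capped end of the message and unwind it. eIF2B recharges eIF2 with GTP, and kinases that phosphorylate eIF2-alpha block that step under stress. In elongation eEF1A brings aminoacyl-tRNA, the eEF1B subunits recharge eEF1A, and eEF2 moves the ribosome, and eRF1 (ETF1) and eRF3 (GSPT1, GSPT2) end the chain at a stop codon.

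Abundance is given as TPM (transcript abundance relative to a fixed total), a measure per transcript length that the authors scaled within each library, summed here over the transcripts of a gene. Each library sums to the same total, so its depth cannot be read from it. The table has 1 column of estimated counts that names no library. Divided by effective transcript length, these counts stood in the proportions of TPM in replicate 1 for the transcripts compared. The counts therefore describe replicate 1 only. They sum to 33184885 and give 16 to 292703 estimated counts per translation factor gene (median 7404). Of markers often reported for HEK293T, 7 of 7 were called above 1 TPM in the level test described below, as were 58.5% of all symbols tested. They ran from PAX2 at 1.57 TPM to VIM at 401 TPM. Markers of other cells each had a mean of at most 1.58 TPM, so PAX2 did not stand apart from the highest of them. The summed TPM per library was 0.825 to 1.46 over 5 blood markers, with CD3E, HBB and MS4A1 listed at 0, 1.04 to 1.51 over 3 hepatocyte markers, 0.200 to 0.414 over 3 endothelial markers and 1.78 to 2.23 over 3 fibroblast markers, where LUM (1.58 TPM) was called above 1 TPM.

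A known sequence feature of many translation factor messages is the terminal oligopyrimidine tract, a C at the first base followed by a run of C and T, through which mTOR and LARP1 regulate translation. The first bases of the annotated gene starts in RefSeq (GRCh38.p14) were read for the 47 genes that had an entry. Of these, 11 (23.4%) had a C at the start followed by at least 4 bases that were each C or T, read on the transcript strand only, and for genes with several annotated starts in at least 1 of them. The same held for 1404 of 27305 symbols in the table (5.14%) and for 757 of 9953 symbols (7.61%) with a mean of at least 1 TPM. The starts of 6 of these 11 genes are shown as examples of the run in elongation factors, eIF3 and eIF4B; the abundant EEF1G and EIF5A had an entry and no run. Each is given 5′ to 3′ with 10 bases before the start in lower case, and the run from the first base in capitals.
EEF1A1, chr6:73521018-73521042, minus strand: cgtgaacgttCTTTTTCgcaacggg
EEF2, chr19:3985449-3985473, minus strand: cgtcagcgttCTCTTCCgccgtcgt
EEF1B2, chr2:206159885-206159909, plus strand: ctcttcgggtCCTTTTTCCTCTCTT
EIF3F, chr11:7987327-7987351, plus strand: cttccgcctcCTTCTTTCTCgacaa
EIF3M, chr11:32583821-32583845, plus strand: gcccagttccCTTTTCCggtcggcg
EIF4B, chr12:53006446-53006470, plus strand: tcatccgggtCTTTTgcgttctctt
The other 5 genes with such a start were EIF2A, EIF2S3, EIF3D, EIF3K and EIF4A2. Median levels were 389.8 TPM for the 11 genes with the run and 131 TPM for the 36 without it, against 33.0 and 23.1 TPM for all symbols of at least 1 TPM with and without it. These are descriptions of annotated starts, since the deposited table does not locate starts. Not matched in the table of starts used here were EEF1A2, EEF1D, EIF2AK1, EIF2S2, EIF3A, EIF3CL, EIF3E, EIF3G, EIF3H, EIF3L and EIF4EBP1.

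Translation factor messages were abundant and even between libraries. Together the 58 genes held 2.59% ± 0.0159 of all TPM (SD, n = 3), and their median was 203 TPM, where the median was 4.29 TPM over all symbols above 0. Each gene was tested against 1, 10 and 100 TPM by a one-sample limma fit to log2(TPM + 0.01), adjusted by the Benjamini-Hochberg method over 21990 symbols and called at an adjusted p under 0.05. Above 1 TPM lay 57 of the 58 genes, where 58.5% of all symbols tested were called above, and 1 lay below, where 33.9% were. Above 10 TPM lay 52 (39.7% of all symbols), 3 lay below (57.1%) and 3 were undecided. Above 100 TPM lay 39 (7.03%), 16 lay below (92.2%) and 3 were undecided. At 100 TPM, 3 genes sat on the line: EIF1B at 102 ± 1.11 TPM (limma adjusted p = 0.0872), EIF5B at 99.5 ± 2.16 TPM (0.697) and EIF4E2 at 105 ± 7.39 TPM (0.227). EIF2B2 (104 ± 1.80 TPM) was called above 100 TPM with adjusted p = 0.0320, but leaving out replicate 1 (limma adjusted p = 0.114) or replicate 2 (0.137), or fitting without the mean-variance trend (0.186), ended the call. EIF4E2 was called above 100 TPM without replicate 3 (limma adjusted p = 0.0152), and with TPM rescaled without mitochondrially encoded genes EIF4E2 (0.0206), EIF1B (0.000784) and EIF5B (0.00777) were called above. In protein-coding transcripts EIF5B was called below (limma adjusted p = 0.0135) and EIF4E, above 100 TPM over all transcripts, was undecided (0.118). When only transcripts annotated as protein coding were summed, 32 genes lay above 100 TPM and 23 below. The share of all symbols in that setting is not given here, so these counts are not read as a trait of the genes.

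**Figure D1:**
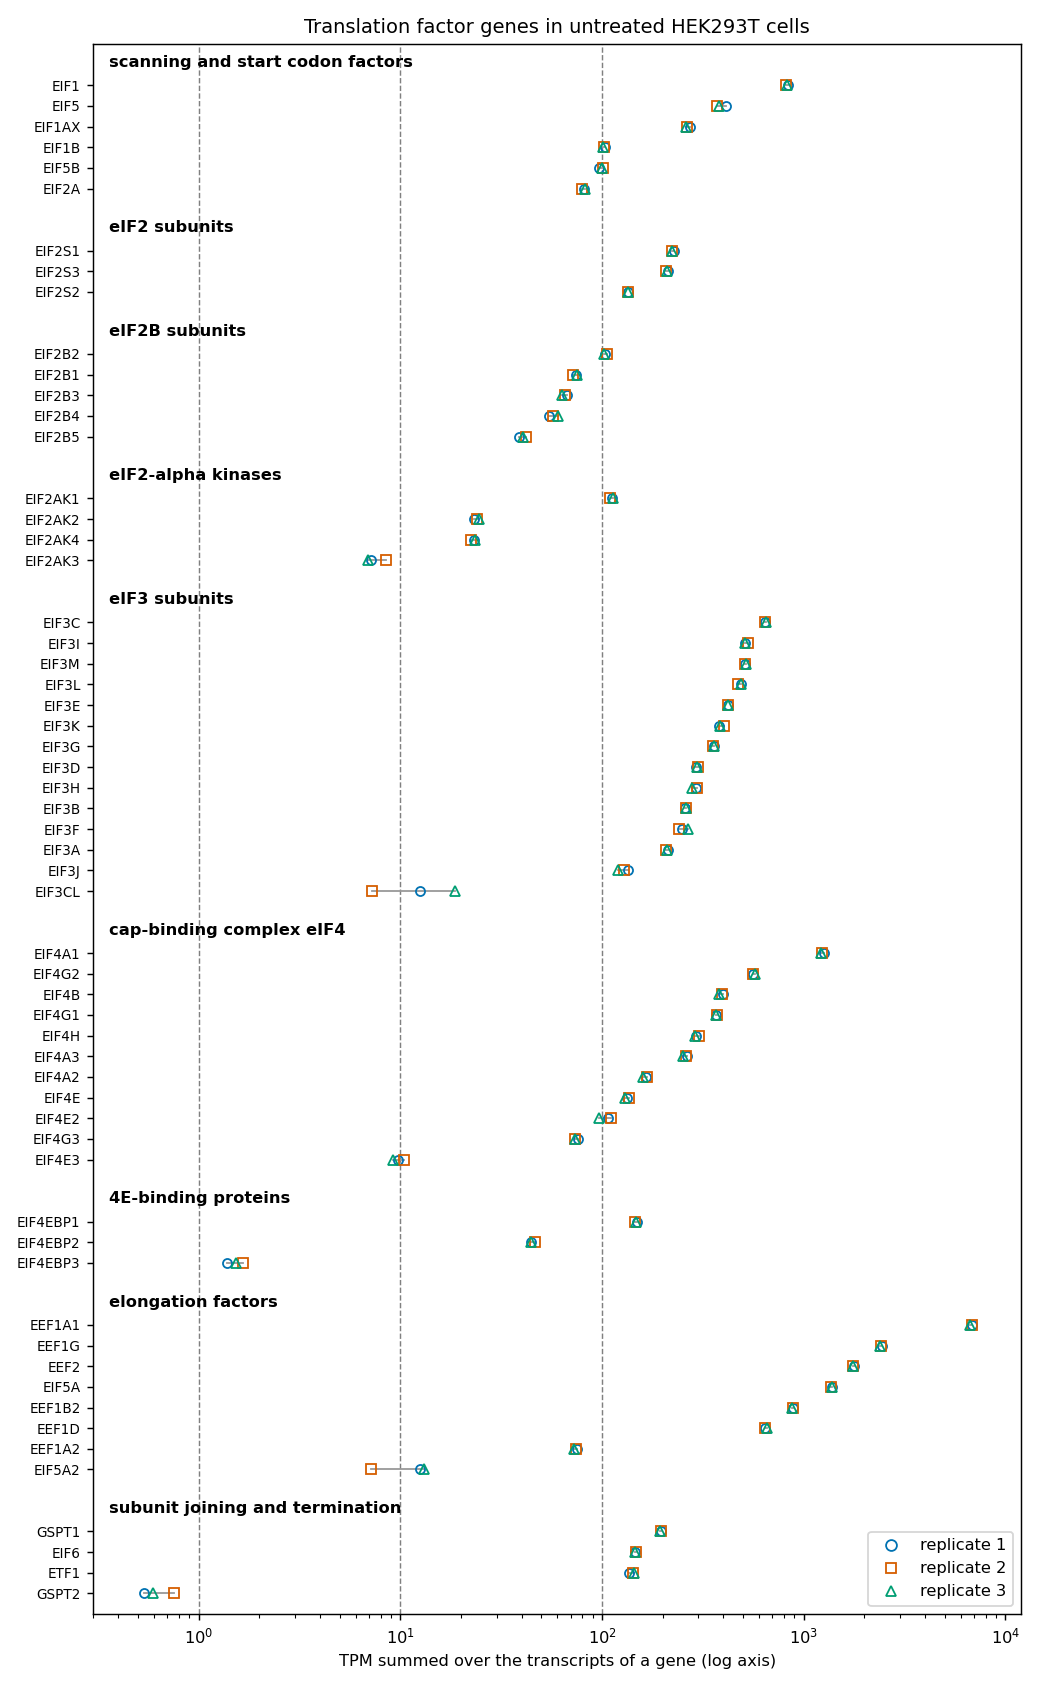
TPM of each of the 58 translation factor genes in replicates 1, 2 and 3 (symbols), grouped by role and ordered by mean, on a log axis with dashed lines at 1, 10 and 100 TPM; grey bars join the lowest and highest library. EEF1A1 stood at the top near 6780 TPM and GSPT2 at the bottom at 0.628 TPM, and the widest bars were those of EIF3CL and EIF5A2.

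Ranked by mean TPM, the order was firm between some neighbours and not between others. Of 57 neighbouring pairs in the order, 22 overlapped between libraries. The top 7 places (EEF1A1, EEF1G, EEF2, EIF5A, EIF4A1, EEF1B2 and EIF1) did not overlap with the gene that followed. Overlaps began at EEF1D and EIF3C, and a longer run of overlapping neighbours reached from EIF2AK1 through EIF4E2, EIF2B2 and EIF1B to EIF5B.

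Elongation factors were the most abundant group, with 1.40% ± 0.0108 of all TPM in 8 genes. EEF1A1, the carrier of aminoacyl-tRNA, reached 6828 TPM in replicates 1 and 2 and at 6683 TPM in replicate 3, rank 5 among all symbols. EEF1G, a structural subunit of the exchange complex eEF1B, followed at 2450.3, 2427 and 2398 TPM in replicates 1, 2 and 3. EEF2, the translocase, stood at 1772, 1759 and 1765 TPM. In all 3 libraries EEF1A1 was above EEF1G, and EEF1G above EEF2, with no overlap. The eEF1B subunits with nucleotide exchange activity were lower, EEF1B2 at 883 ± 8.29 TPM and EEF1D at 650 ± 9.32 TPM (SD, n = 3). Within libraries EEF1A1 exceeded EEF1B2 by 2.94 ± 0.00595 and EEF2 by 1.94 ± 0.0184 on the log2(TPM + 0.1) scale, and EEF1B2 lay below EEF1G by a difference of -1.46 ± 0.00354. With the most abundant transcript only, EEF1A1 minus EEF1B2 was 4.20 and EEF1B2 minus EEF1G was -3.23, where 1 of 2 equal copies of EEF1B2 was counted. All 3 differences were larger than their spread between libraries.

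EEF1A1 and EIF5A each had a far less abundant paralog. EEF1A2 (chromosome 20, 63488012 to 63499322, hg38), the eEF1A form best known from muscle and neurons, was listed at 75.4, 74.5 and 72.3 TPM, and EEF1A1 (chromosome 6, 73515750 to 73523797) exceeded it 91.4-fold (log2 difference 6.51, 95% interval 6.47 to 6.56, limma adjusted p = 1.8e-07 over 32 pairs). EEF1A2 made up 1.08% ± 0.0106 of the TPM of both, a share with little spread. Of its TPM, 63.3% ± 0.927 was in the 2014-base coding transcript EEF1A2-201 and 33.9% ± 1.80 in EEF1A2-202, a 1586-base transcript annotated as non-stop decay. EIF5A, the factor that carries the modified residue hypusine and helps the ribosome through stalling motifs, stood at 1380.1, 1372 and 1379 TPM. Its paralog EIF5A2 was listed at 12.5, 7.16 and 13.1 TPM, low in replicate 2. It was undecided against 10 TPM (limma adjusted p = 0.718), and called above without replicate 2 (0.00747), and EIF5A exceeded it 129-fold (log2 difference 7.01, 95% interval 6.36 to 7.67, adjusted p = 5.13e-05). The fold was 203 in protein-coding transcripts and 199 with the most abundant transcript only.

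The transcripts of EIF5A2 varied unequally. The 5593-base coding transcript EIF5A2-201 held 81.1% of the gene's 395 estimated counts, which follow replicate 1, and was listed at 2.51, 2.33 and 2.60 TPM. The 570-base EIF5A2-203 went from 3.80 TPM in replicate 1 to 1.14 in replicate 2 and 3.50 in replicate 3, with 32.3 estimated counts. The 457-base EIF5A2-204 was listed at 2.07, 0.313 and 2.53 TPM, with 12.3 estimated counts. The shorter transcripts thus differed between libraries more than the longest, which held 24.1% ± 7.28 of the gene's TPM.

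Of the release factor genes, ETF1 and GSPT1 lay well above 100 TPM and GSPT2 under 1 TPM. ETF1, the stop codon reader eRF1, was listed at 136, 142 and 143 TPM and GSPT1, the GTPase eRF3a, at 196, 196 and 194 TPM. GSPT1 was higher in each library (log2 ETF1 minus GSPT1 -0.48, 95% interval -0.55 to -0.40, limma adjusted p = 0.000246). With the most abundant transcript only the difference was 0.092 and the call was lost (limma adjusted p = 0.0806). GSPT2, an eRF3 gene on the X chromosome (51743431 to 51746232), was listed at 0.537, 0.752 and 0.595 TPM, 33 estimated counts, and was the only translation factor gene called below 1 TPM (adjusted p = 0.0250). Leaving out replicate 1 (limma adjusted p = 0.0813) or replicate 3 (0.0844) ended that call. GSPT1 exceeded GSPT2 270-fold (95% interval of the log2 difference 7.78 to 8.37). The fold was 121 with a pseudocount of 1 and 117 with the most abundant transcript only. EIF6, which keeps the large ribosomal subunit from joining too early, stood at 146 ± 1.35 TPM.

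Among factors that find the start codon, EIF1 was highest and 3 of 6 lay above 100 TPM. EIF1, which guards start codon choice, was listed at 839.6, 818 and 825 TPM, and EIF1B, its close paralog, at 103, 102 and 101.2 TPM. The groups of values did not overlap (log2 difference 3.01, 95% interval 2.97 to 3.06, limma adjusted p = 7.47e-07). With protein-coding transcripts alone the difference was 1.56 (1.49 to 1.62), with 35.5% ± 0.431 of EIF1's TPM was in transcripts annotated as coding. EIF5, the GTPase-activating protein of eIF2, stood at 412, 373 and 380 TPM, highest in replicate 1. EIF1AX, the partner of eIF1 on the small subunit, stood at 266 ± 5.94 TPM, EIF5B, which joins the subunits, at 99.5 ± 2.16 TPM, and EIF2A, an alternative carrier of initiator tRNA, was lowest at 81.1 ± 1.05 TPM.

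The messages of the eIF2 subunits were within 1.67-fold ± 0.0256 of each other by summed TPM (highest over lowest, SD, n = 3). EIF2S1, the alpha subunit that stress kinases phosphorylate, was listed at 227, 221 and 221 TPM, EIF2S3, the GTP-binding gamma subunit, at 211, 208 and 211 TPM, and EIF2S2, the beta subunit, at 134 TPM in each library. EIF2S1 exceeded EIF2S3 by a log2 difference of 0.09 (95% interval 0.04 to 0.13, limma adjusted p = 0.00736), and this call was lost without replicate 3 (adjusted p = 0.0523). The direction turned with the transcripts counted. In protein-coding transcripts alone EIF2S1 stood at 61.8 ± 3.05 TPM, below EIF2S2 by -1.12 and below EIF2S3 by -1.55 on the log2 scale, and the range of the complex was 2.94-fold. The rest of EIF2S1 lay in EIF2S1-205 (527 bases) and EIF2S1-203 (534 bases), both annotated as retained introns, which held 40.5% ± 1.496 and 31.9% ± 0.472 of its TPM and 19.0% and 14.7% of its estimated counts.

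The guanine nucleotide exchange factor eIF2B had lower subunit messages than eIF2 by TPM summed over all transcripts. Its 5 subunits ran from EIF2B5 at 38.6, 41.9 and 40.5 TPM to EIF2B2 at 104, 106 and 102 TPM, a 2.57-fold ± 0.0957 range, with EIF2B4 at 57.5 ± 2.79, EIF2B3 at 65.2 ± 1.94 and EIF2B1 at 73.6 ± 1.43 TPM. EIF2B5, the catalytic epsilon subunit, lay below EIF2S1 5.52-fold (log2 EIF2S1 minus EIF2B5 2.47, 95% interval 2.35 to 2.58). In protein-coding transcripts, with those that had no match in the annotation, the difference was 1.18. The place of EIF2B2 also turned: 70.8% of its TPM was in retained-intron transcripts and 23.3% in transcripts annotated for nonsense-mediated decay. Its coding transcripts stood at 6.11 ± 0.181 TPM, the lowest of the 5, against 67.1 ± 1.30 TPM for EIF2B1. EIF2B1 minus EIF2B2 thus went from -0.49 to 3.44 on the log2 scale. In coding transcripts EIF2B1 also lay above EIF2S1 (61.8 ± 3.05 TPM), so the subunit messages of eIF2B and eIF2 overlapped there.

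The 4 kinases of eIF2-alpha were unequal. EIF2AK1 (HRI, a sensor of heme) was listed at 112, 110.1 and 113 TPM and made up 67.3% ± 0.468 of the TPM of all 4, though in protein-coding transcripts it lay below 100 TPM by -0.23 on the log2 scale. EIF2AK2 (PKR, a sensor of double-stranded RNA) stood at 23.1, 24.0 and 24.6 TPM and EIF2AK4 (GCN2, a sensor of amino acid shortage) at 23.2, 22.4 and 23.4 TPM, overlapping. EIF2AK3 (PERK, a sensor of endoplasmic reticulum stress) was lowest at 7.13, 8.48 and 6.93 TPM and was called below 10 TPM (limma adjusted p = 0.00500). EIF2AK1 exceeded EIF2AK2 4.66-fold and EIF2AK4 4.84-fold (2.96-fold with the most abundant transcript only), and EIF2AK3 lay below EIF2AK4 by a log2 difference of -1.61 (95% interval -1.87 to -1.34). The 582-base EIF2AK3-204, annotated as a processed transcript, was listed at 2.49 TPM in replicate 2 and at 0 in the others, while the 4646-base coding transcript stood at 5.76 ± 0.162 TPM.

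The subunits of eIF3, the scaffold that joins the small subunit to the message, held 0.477% ± 0.00129 of all TPM. Of 14 genes, 13 lay above 100 TPM. In protein-coding transcripts EIF3L, with 91.6% of its TPM in retained-intron transcripts, lay below 100 TPM by -1.62 on the log2 scale (limma adjusted p = 3.76e-05) and EIF3J by -0.085 (0.0149). Over all transcripts EIF3C was highest at 643, 641 and 653 TPM, followed by EIF3I (517 ± 8.76 TPM), EIF3M (512 ± 4.41 TPM) and EIF3L (484 ± 9.62 TPM), where EIF3I and EIF3M overlapped. EIF3E (421 ± 1.38 TPM), EIF3K (389.8 ± 11.7 TPM), EIF3G (358 ± 2.35 TPM), EIF3D (295 ± 3.19 TPM) and EIF3H (288 ± 8.83 TPM) came next. EIF3B and EIF3A stood at 259 ± 0.806 and 209.9 ± 2.07 TPM, and EIF3F at 248, 239.8 and 268 TPM. EIF3J, a loosely bound subunit, was lowest of the 13 distinct subunits at 135, 129 and 120.4 TPM. The 13 subunits spanned 5.06-fold ± 0.330, and 3.08-fold ± 0.0313 without EIF3J. In protein-coding transcripts the range was 18.3-fold ± 3.70, with EIF3L lowest at 33.0 TPM, and with the most abundant transcript only it was 8.30-fold ± 0.395.

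EIF3C and EIF3CL are near copies on chromosome 16 (28688558 to 28735730 and 28379579 to 28403879), and the division of reads between them is uncertain. Of the 31-base words in EIF3CL transcripts, 98.5% also occurred in EIF3C. EIF3CL was listed at 12.5, 7.27 and 18.8 TPM, high in replicate 3 and low in replicate 2, with a coefficient of variation (CV) of 44.7%, the highest among the 58 genes. The sum of both genes was 656, 648 and 671 TPM, a CV of 1.80%, and EIF3CL took 1.94% ± 0.837 of it. EIF3C exceeded EIF3CL by a log2 difference of 5.74 (95% interval 4.82 to 6.66), and by 4.33 with the most abundant transcript only.

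The factors that bind and unwind the capped end were led by the helicase EIF4A1 at 1259, 1227 and 1223 TPM. Its paralog EIF4A2 was listed at 165, 167 and 160.3 TPM, 11.7% ± 0.216 of the TPM of both, and EIF4A3, a helicase of the exon junction complex, at 259 ± 5.49 TPM. EIF4A1 exceeded EIF4A2 7.54-fold (log2 difference 2.91, 95% interval 2.86 to 2.97), and by 4.35 on the log2 scale in protein-coding transcripts, where EIF4A2 lay below 100 TPM by -0.87. EIF4A2 was split over many transcripts. Its most abundant one, EIF4A2-202, is annotated for nonsense-mediated decay and held 22.7% ± 2.40 of the gene's TPM, and the coding EIF4A2-205 held 21.1% ± 1.61.

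Of the scaffold genes, EIF4G2 was highest. EIF4G2 (DAP5, which lacks the eIF4E-binding part) stood at 562, 563 and 575 TPM and EIF4G1 at 369, 374 and 367 TPM, and EIF4G3 was lower at 74.2 ± 1.31 TPM. EIF4G1 lay below EIF4G2 by a log2 difference of -0.61 (95% interval -0.67 to -0.56, limma adjusted p = 4.3e-05). EIF4G2 made up 56.1% ± 0.458 of the summed TPM of the 3 genes. The accessory factors of the helicase, EIF4B (389.9 ± 10.8 TPM) and EIF4H (295 ± 7.20 TPM), differed by 0.40 on the log2 scale (95% interval 0.33 to 0.47). The direction turned with the most abundant transcript only (-0.17, limma adjusted p = 0.00271).

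The cap-binding protein genes were below the scaffold genes EIF4G1 and EIF4G2, while EIF4E and EIF4E2 were above EIF4G3 (74.2 ± 1.31 TPM). EIF4E was listed at 133, 137 and 130.3 TPM, EIF4E2 (4EHP, a repressor that binds the cap without eIF4G1) at 107, 111 and 96.3 TPM, and EIF4E3 at 9.69, 10.4 and 9.23 TPM. EIF4E lay above EIF4E2 in each library (log2 difference 0.35, 95% interval 0.25 to 0.46, limma adjusted p = 0.00155). In protein-coding transcripts the difference was 0.03 (-0.09 to 0.15, limma adjusted p = 0.497), where the call was lost. EIF4E minus EIF4G1 was -1.47 (95% interval -1.52 to -1.42).

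The 4E-binding proteins hold eIF4E away from eIF4G until mTOR phosphorylates them, and 1 gene held most of their messages. EIF4EBP1 was listed at 149, 146 and 148 TPM, 76.0% ± 0.639 of the summed TPM of the 3 genes, EIF4EBP2 at 44.3, 46.3 and 44.5 TPM, and EIF4EBP3 at 1.38, 1.65 and 1.53 TPM. EIF4EBP1 exceeded EIF4EBP2 3.27-fold and lay close to EIF4E, with EIF4E lower by a log2 difference of -0.14 (95% interval -0.22 to -0.07, limma adjusted p = 0.00710, lost without replicate 1 with adjusted p = 0.0542). With the most abundant transcript only this difference was -1.26. EIF4EBP3 rested on 16 estimated counts. Of its 31-base words, 72.6% also occurred in the readthrough gene ANKHD1-EIF4EBP3, which was listed at 8.86 ± 0.560 TPM, so its level is uncertain.

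Across the 32 pairs of paralogs and complex partners, limma's test of the difference within libraries (adjusted over these pairs) passed in every pair. Differences ran from 0.09 to 8.08 in size on the log2(TPM + 0.1) scale. The spread between libraries was small, so even the 0.09 of EIF2S1 minus EIF2S3 passed. The pairs were chosen with earlier results known, and no other gene pairs were tested. The count of passing pairs is therefore no trait of paralogs or complexes. With protein-coding transcripts, together with those that had no match in the annotation, 31 pairs passed, 3 turned direction (EIF2S1 against EIF2S2 and EIF2S3, and EIF2B1 against EIF2B2) and 7 moved by more than 1 log2 unit.

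**Figure D2:**
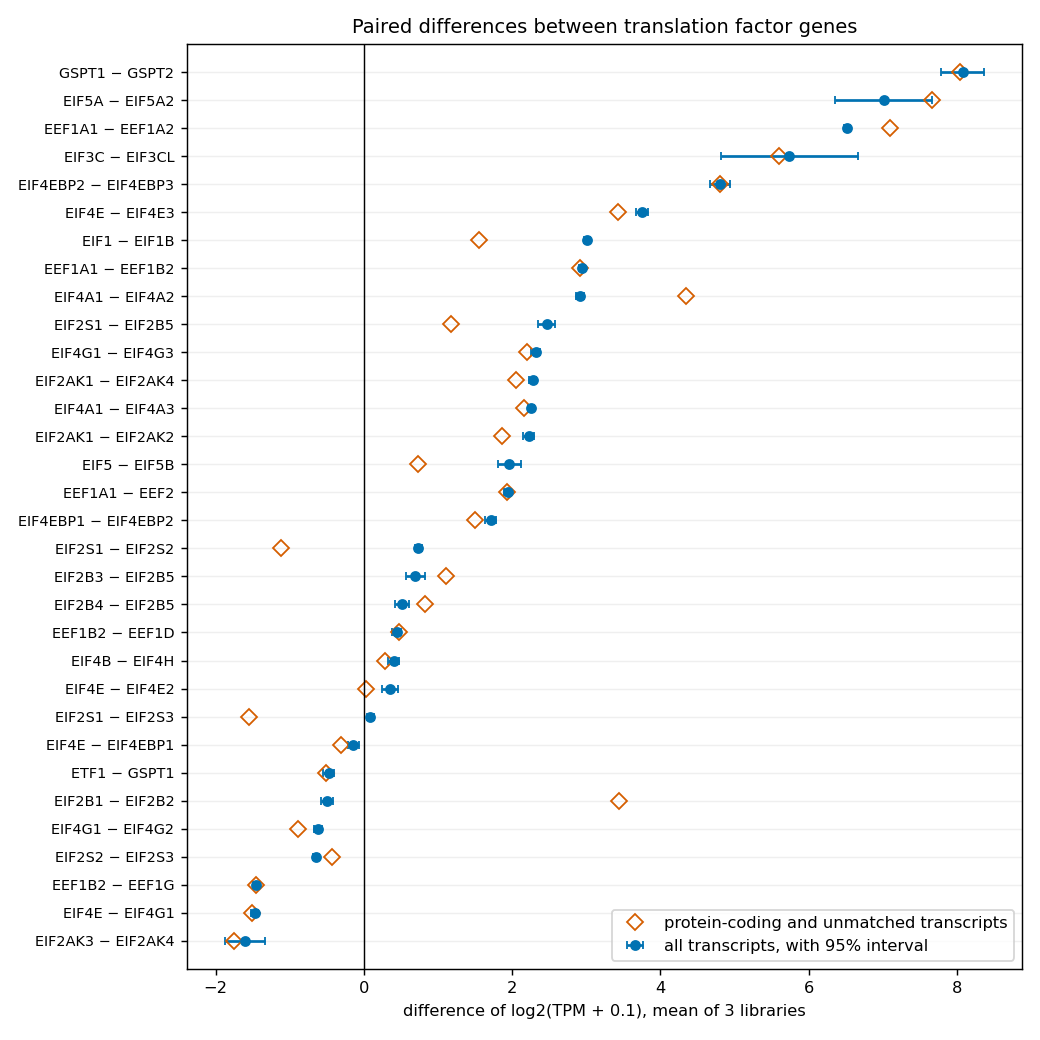
Difference of log2(TPM + 0.1) between genes of each of the 32 pairs, as the mean of 3 libraries with its 95% interval over all transcripts (filled circles), and from transcripts annotated as protein coding or without a match (open diamonds). The diamonds cross 0 against the circles for EIF2S1 minus EIF2S2, EIF2S1 minus EIF2S3 and EIF2B1 minus EIF2B2.

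Much of the summed TPM of some factors lay in transcripts not annotated as protein coding. Transcripts of GENCODE release 29 annotated as protein coding held a median of 88.7% of TPM over the 58 genes and under 50% in 9 of them (15.5%). Over 10327 symbols with a coding transcript and at least 5 TPM, the median was 84.8% and 14.3% were under 50%, so the translation factors were near the rest of the table. Retained-intron transcripts held over 20% of TPM in 8 of the genes, which was not counted over all symbols. EIF3L had the highest share, 91.6% of TPM and 89.95% of estimated counts, led by EIF3L-212 (1708 bases, 42.9% ± 0.630 of TPM) and EIF3L-213 (1294 bases, 31.9% ± 1.49), and its coding transcripts stood at 33.0 ± 6.43 TPM. EIF3M had 31.1% in retained-intron and 18.5% in nonsense-mediated decay transcripts.

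TPM and estimated counts gave different pictures for some genes. The TPM shares are means of 3 libraries, and the counts follow replicate 1. In EIF5, retained-intron transcripts held 59.0% of TPM and 18.8% of estimated counts. There EIF5-210 (704 bases) and EIF5-207 (552 bases) were the most abundant by TPM while the 4384-base coding EIF5-205 held 35.3% of the counts. In EIF2S1 the share of coding transcripts was 27.7% of TPM and 66.3% of estimated counts. In EIF2B2 (5.89% of TPM and 26.3% of estimated counts), EIF3L, EIF4A2 and EIF1 both measures gave coding transcripts under 50%. The same held for EIF3F, EIF3K and EEF1B2, where unmatched transcripts are not counted as coding. Over the 58 genes the median coding share was 96.5% of estimated counts, and 7 genes were under 50%.

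In 4 genes a large part of TPM was in transcripts with no match in release 29, and nearly all were exact repeats of a matched transcript. EIF3F, EIF3K and EEF1B2 each had 50% of TPM in such entries, and all of their unmatched transcripts (9, 14 and 11) had a matched partner of the same length and the same TPM in every library. In EEF1D, with 103 listed transcripts, 45 of 47 unmatched transcripts had such a partner. The gene sums include both copies. These genes are counted among those with under 50% in coding transcripts where the matched copy alone falls under that share, as in EIF3F, EIF3K and EEF1B2.

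**Figure D3:**
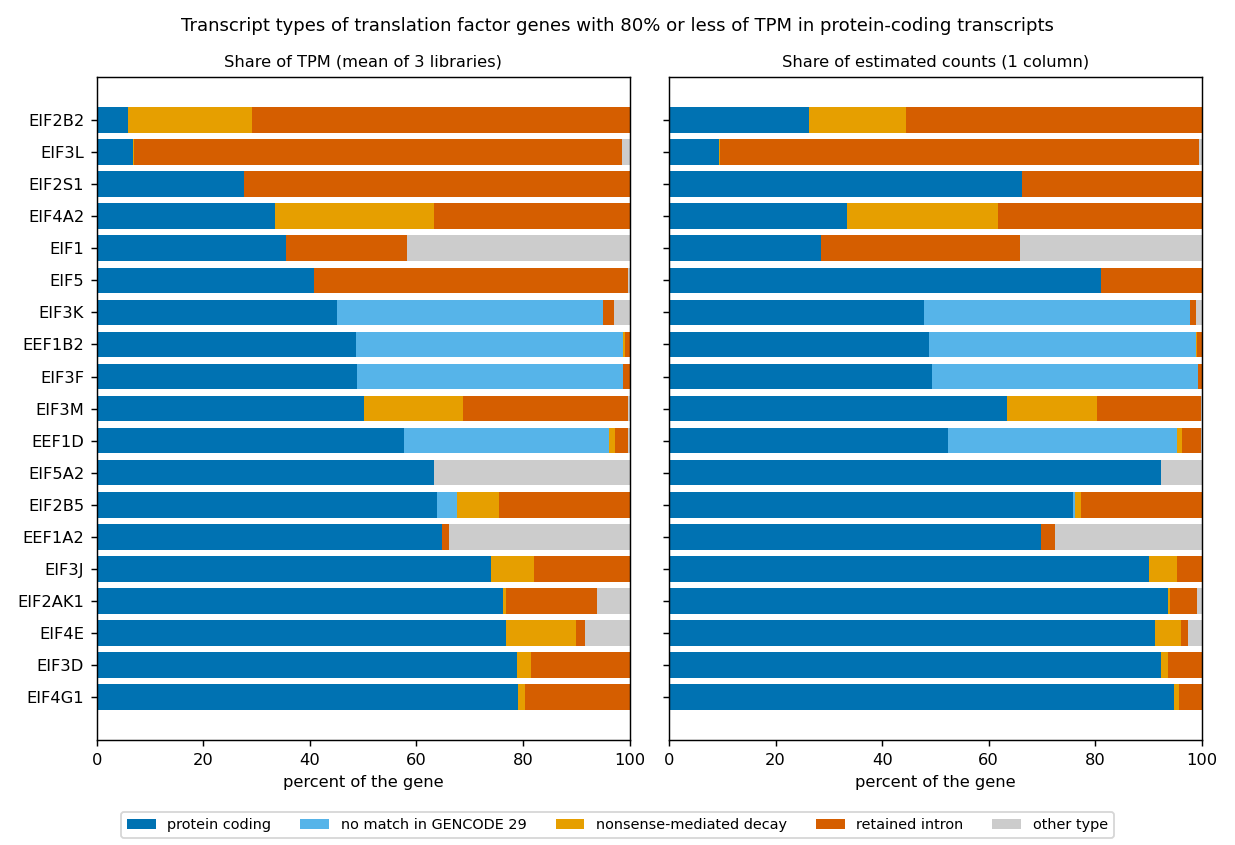
Percent of each gene's TPM (left, mean of 3 libraries) and of its estimated counts (right, the single deposited column) by annotated transcript type. The counts follow replicate 1. Shown are the 19 translation factor genes with 80% or less of TPM in protein-coding transcripts. EIF3L is mostly retained-intron by both measures, whereas EIF5 and EIF2S1 are mostly retained-intron by TPM and mostly coding by estimated counts.

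Which transcript led a gene was the same in each library for 53 of the 54 genes with more than 1 transcript (98.1%). The share was 87.3% over 10081 symbols of at least 5 TPM, a set that includes many lower genes. EIF1AX was the exception among the 54 genes. Its 765-base EIF1AX-201 was listed at 137, 131 and 123 TPM and its 4427-base EIF1AX-202 at 135, 134 and 138 TPM, so they traded places, and the longer one held 88.3% of the estimated counts. The leading transcript held a median of 55.3% of a gene's TPM (53.4% over all those symbols). It held under 50% in 24 of the 54 genes (44.44%), the same share as over all those symbols (44.45%). Among these, EIF3F (41.7%), EIF3K (34.6%) and EEF1B2 (28.9%) each had an unmatched copy of the leading transcript with an equal share, which is not added in. EEF1G (98.9% ± 0.168), EEF2 (98.2% ± 0.0169) and EIF1B (97.5% ± 0.183) were carried almost wholly by 1 transcript. In EEF1A1 the 1923-base EEF1A1-203 held 69.1% ± 0.443 and the 2303-base EEF1A1-201 held 27.8% ± 0.291, both coding. GSPT1 was divided between the coding transcripts GSPT1-206 (43.4% ± 1.61) and GSPT1-203 (33.5% ± 2.66), and EIF4G1 between EIF4G1-202 (37.9% ± 0.957) and EIF4G1-221 (14.6% ± 0.420).

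Levels were steady between libraries. Over the 57 genes with a mean of at least 1 TPM the median CV was 1.76%, where it was 4.54% over 13475 symbols of that level, a set that includes many lower genes. At a mean of at least 10 TPM the medians were 1.71% and 3.36%. At that level a CV over 10% was found in 2 of 54 genes and in 571 of 9056 symbols. At a mean of at least 1 TPM it was found in 3 of 57 genes and in 2901 of 13475 symbols. A CV under 5%, not counted over all symbols, was found in 48 of the 58 genes. It was over 10% in 4 of the 58: EIF3CL (44.7%), EIF5A2 (29.96%), GSPT2 (17.8%) and EIF2AK3 (11.3%). They rested on 852, 395, 33 and 649 estimated counts, and what part counting error had in their spread was not tested. EIF2S2, with 1 listed transcript, had the lowest CV at 0.145%. With 3 libraries a CV is itself imprecise.

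**Figure D4:**
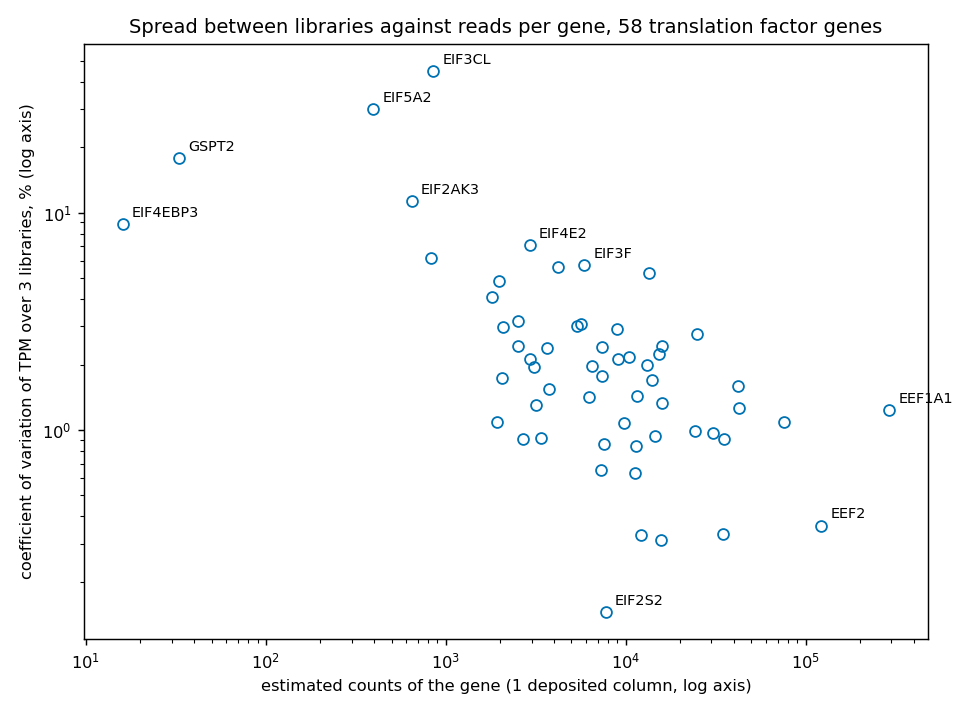
Coefficient of variation of TPM over 3 libraries against estimated counts of each of the 58 genes, both on log axes. The counts follow replicate 1. The 4 genes with a CV over 10% (EIF3CL, EIF5A2, GSPT2 and EIF2AK3) lie to the left, at 33 to 852 estimated counts. EIF4EBP3 (16 estimated counts, CV 8.87%) and EIF4E3 (825 estimated counts, CV 6.19%) also lie to the left. EIF2S2 lies lowest at a CV of 0.145%.

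Sequence shared with other genes limits some of these levels. A median of 3.81% of a gene's 31-base words occurred in transcripts of another symbol, with over 20% in 12 genes and over 50% in EIF3CL, EIF4EBP3 and EEF1G. Of EEF1G's words, 96.8% occurred in AP002990.1, which was listed at 3.48 ± 0.361 TPM. For EEF1A1 the share was 24.1% and the closest symbol was the pseudogene EEF1A1P5, listed at 14.5 ± 1.17 TPM. EEF1A2 (2.87%), EEF2 (0%), EIF1B (0%) and GSPT2 (2.27%) shared little. For EIF5A the share was 22.6%, mostly with EIF5AL1 (3.13 ± 0.193 TPM).

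Other genes that act with these factors were described from 6 lists. Of 57 listed genes, 56 were in the table. All 56 lay above 1 TPM (58.5% of all symbols tested), 53 above 10 TPM (39.7%) with 3 below (57.1%), and 14 above 100 TPM (7.03%) with 41 below (92.2%), and their median was 54.0 TPM. Among 10 poly(A)-binding and eIF4E regulators, PABPC1, the main cytoplasmic poly(A)-binding protein, was highest at 1032 ± 12.9 TPM and PAIP2B lowest at 4.80 ± 0.193 TPM. Among 8 genes of scanning helicases and ribosome recycling the helicase DDX3X was highest at 270.2 ± 6.37 TPM and PELO, which rescues stalled ribosomes, lowest at 15.05 ± 1.09 TPM. Of 6 genes around eIF2 dephosphorylation and assembly, CDC123, which assembles eIF2, stood at 173 ± 1.05 TPM and PPP1R15A (GADD34), a phosphatase subunit that reverses eIF2-alpha phosphorylation, was lowest at 11.9 ± 0.271 TPM.

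Partners and modifiers of elongation factors had a median of 31.5 TPM. All 17 listed genes in the table lay above 1 TPM, 2 above 100 TPM, from EEF1AKMT3, a lysine methyltransferase of eEF1A, at 4.90 ± 0.264 TPM to EEF1E1 at 151 ± 0.797 TPM. Of 5 termination partners TRMT112, the partner of the methyltransferase N6AMT1 that modifies eRF1, was highest at 455 ± 10.2 TPM and N6AMT1 lowest at 10.9 ± 0.512 TPM. Of 10 mitochondrial translation factors, TUFM, the mitochondrial elongation factor Tu, was highest at 340.2 ± 1.27 TPM and the only one above 100 TPM, and MTRF1 was lowest at 15.1 ± 2.02 TPM.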

How the data were processed

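Directional libraries were prepared from oligo-dT selected RNA of untreated HEK293T cells (3 libraries), per the labels' protocols. The authors quantified transcripts with kallisto on hg38, per the submitters' processing notes; for the version, transcript release and strand setting, each is not given in the sources used here. TPM is given in the deposited table per transcript and library, beside 1 column of estimated counts that names no library, per the file headers. The estimated counts, which follow replicate 1, were used only to describe the reads behind a gene. TPM was summed by symbol (185299 transcripts, 35880 symbols). Transcript names and types came from GENCODE release 29 (hg38): 90.4% of transcripts matched, with 96.9% of TPM. Levels were tested with limma 3.58.1 (R 4.3.3) on log2(TPM + 0.01) over 21990 symbols above 0 in at least 1 library, with a mean-variance trend, and 32 pairs on the difference of log2(TPM + 0.1) within a library, both with Benjamini-Hochberg adjustment at 0.05; values on these scales understate differences of low genes. Intervals are 95%. edgeR 4.0.16 was used for TMM scaling only. The tests were checked on simulated data. Named were every translation factor gene, the highest and lowest of each other list, the 3 highest pseudogene symbols, and the leading transcripts of genes led by under 50% or of the top gene of a role. Other transcripts, readthrough genes, AP002990.1 and EIF5AL1 were chosen after their values were seen. The genes, lists and pairs were chosen with earlier results of these data known. Shared words were read from the transcript strand only. Of the other lists, EEF1AKNMT had no row under that symbol. Alternatives were other pseudocounts, scalings, filters, transcript types and leaving out each replicate.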

Additional observations from a re-analysis of the deposited data

How the results depend on the processing

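No paired analysis was possible because the libraries form 1 group; pairs of genes were compared within libraries. The counts of genes above 1, 10 and 100 TPM stayed within 1.5 times under every alternative run. All symbols called below 1 TPM numbered 7454, and 3493 with a mean of at least 0.1 TPM required and 4217 from protein-coding transcripts, as fewer genes are tested. Translation factor genes below 1 TPM numbered 0 to 1 when 1 replicate was left out. In protein-coding transcripts alone, EIF2B2 fell to -0.71 against 10 TPM on the log2 scale, and EIF5A2 to -0.59. Against 100 TPM, with or without unmatched transcripts, the values were -0.0038 for EIF1B, -0.70 for EIF2S1, -4.03 for EIF2B2, -0.23 for EIF2AK1, -0.085 for EIF3J, -1.62 for EIF3L and -0.87 for EIF4A2, all positive over all transcripts. Rescaling without mitochondrially encoded genes shifted the median gene by 0.0988 on the log2 scale, moved EIF4E3 to 0.065 against 10 TPM and EIF5B to 0.091 against 100 TPM, and gave a share of all TPM of 2.77%. Undecided genes changed sign when 1 replicate was left out: against 10 TPM the range was -0.079 to 0.36 for EIF5A2 (-0.046 without replicate 1), -0.067 to 0.62 for EIF3CL and -0.081 to 0.0075 for EIF4E3, and against 100 TPM -0.021 to 0.0095 for EIF5B. With the most abundant transcript only, ETF1 minus GSPT1 was 0.092, EIF2S1 minus EIF2S2 -0.57, EIF2S1 minus EIF2S3 -0.99, EIF2B1 minus EIF2B2 0.14 and EIF4B minus EIF4H -0.17. With protein-coding transcripts, with or without unmatched ones, EIF2S1 minus EIF2S2 was -1.12, EIF2S1 minus EIF2S3 -1.55 and EIF2B1 minus EIF2B2 3.44. The subunit range was 1.99-fold (eIF2), 2.10-fold (eIF2B), 8.30-fold (eIF3) and 37.5-fold (EEF1A1 with eEF1B) with the most abundant transcript only, 2.94, 10.99, 18.3 and 17.6-fold with protein-coding transcripts (2.94, 10.99, 18.3 and 10.5-fold with unmatched ones, which include the equal copies of EEF1B2 and EEF1D), and 3.08-fold for eIF3 without EIF3J. The share of all TPM was 1.91% without EEF1A1. Leaving out 1 replicate, the median main transcript share was 55.003% to 56.9% and the median CV 1.52% to 1.68%. Where no value shows a cause, the cause was not tested.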

Other observations

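Symbols named as a translation factor gene followed by P and a number, the usual form for pseudogenes, numbered 138. Of these 78 were above 0 and 6 had a mean of at least 1 TPM, and together they held 69.8 ± 7.97 TPM (SD, n = 3). EIF1AXP1 was the highest at 44.1, 32.9 and 27.6 TPM in replicates 1, 2 and 3, with a CV of 24.2%. It shared sequence with EIF1AX, in which 7.75% of the 31-base words also occurred in EIF1AXP1. EEF1A1P5 followed at 13.9, 15.8 and 13.7 TPM and EEF1A1P6 at 4.41, 5.41 and 5.55 TPM. The readthrough gene SENP3-EIF4A1 was listed at 3.13 ± 0.410 TPM, against 1237 ± 19.8 TPM for EIF4A1.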
